A study of Mus musculus with 12 samples.

Results

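C-type lectin receptors (CLRs) of myeloid cells were followed through 12 libraries of mouse bone marrow-derived macrophages, as 9 of the 56941 genes in the count tables: Clec7a, Clec4n, Clec4d, Clec4e, Clec5a, Clec12a, Clec4a1, Clec4a2 and Clec4a3. The genes were chosen by their place in the Dectin and Mincle families, with earlier results of these same libraries known, and each symbol matched 1 Ensembl identifier. One of those earlier results was the difference in Clec4n between miR-210 KO and WT M2 macrophages, so that difference is given below as a description, and nothing is read from any count that includes it. The rule has no threshold on a measured value, and the tests of the other values are not independent of the choice of the genes.

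The macrophages came from C57BL/6J mice, either wild-type (WT) or lacking the microRNA miR-210 (miR-210 KO). The null allele went back to a cross of floxed miR-210 mice with Gata-1 Cre mice, and both genotypes were bred from heterozygous parents. Monocytes were isolated from the marrow by negative selection and grown for 7 days in medium conditioned with L929 fibroblasts, a source of M-CSF. The resting cells are called M0, and M2 macrophages received 20 ng/mL of the cytokine IL-4 for a further 72 hours, while M0 wells were kept without it. There were 4 groups (M0 and M2 of WT, and M0 and M2 of miR-210 KO), with 3 libraries each of ribosomal RNA-depleted, stranded RNA-seq. No age is given in the labels, no source ties the libraries to separate animals, so p-values measure the spread between these libraries, and the batch named in the labels differs for every group, so that batch and group cannot be told apart.

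Myeloid CLRs are surface receptors with a lectin-like domain that bind sugars and lipids of fungi and mycobacteria, or products of dying cells. Dectin-1 (Clec7a) carries its own tyrosine motif, whereas Dectin-2 (Clec4n), MCL (Clec4d) and Mincle (Clec4e) signal through the adaptor FcRγ (Fcer1g) and MDL-1 (Clec5a) through DAP12 (Tyrobp). These receptors activate the kinase Syk and, through Card9, Bcl10 and Malt1, NF-κB and cytokine genes. MICL (Clec12a) and DCIR1 (Clec4a2) carry inhibitory motifs that recruit phosphatases, and DCIR4 (Clec4a1) and DCIR3 (Clec4a3) are relatives of DCIR1.

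All 9 genes lie on chromosome 6 (GRCm39). Clec5a stands alone at chr6:40551234-40562773. A stretch of 371 kb at chr6:122896122-123266829 holds Clec4a1, Clec4a3, Clec4a2, Clec4n, Clec4d and Clec4e together with 3 other protein-coding genes, Clec4b1, Clec4a4 and Clec4b2. A second cluster of 130 kb, chr6:129319654-129449742, begins with Clec12a, ends with Clec7a and holds Clec12b, Clec1b, Clec1a and Clec9a between them. In the annotation no exon of the 9 overlapped an exon of another gene on the same strand. Stretches of 50 bases shared with transcripts of other genes made up 6.38% of the stretches of Clec4a2, among them some shared with its neighbours Clec4a4 and Clec4b1, 2.22% of Clec4a1 and under 1% of Clec4n and Clec12a, and the other 5 genes had none.

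The microRNA deleted in the KO animals, with its seed (bases 2 to 8) in capitals, is mature miR-210-3p as RefSeq lists it on chromosome 7 (GRCm38.p6), away from the chromosome of the receptors. Its seed pairs with the letters ACGCACA, which occurred in none of the annotated transcripts of the 9 genes, but in the longest coding transcript of 10.7% of the 11358 protein-coding genes tested.
miR-210-3p: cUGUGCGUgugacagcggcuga

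Promoter windows, 250 bases before and 50 after the annotated start, were given by RefSeq (GRCm38.p6) for 8 of the 9 genes, with 10 windows in all, and not for Clec4n. They were searched on both strands for the core letters of 5 factors of myeloid cells, of which STAT6 is the factor that IL-4 activates. The STAT6 spacing TTCNNNNGAA was present in the windows of Clec7a, Clec5a and Clec4a1, and in 6.95% of the 32851 windows of all genes. AP-1 letters (TGANTCA) were found in Clec12a and Clec4a2 (7.81% of all windows) and C/EBP letters (TTGCNNAA) in Clec12a and Clec4e (10.8%). Neither the PU.1 letters GAGGAAGT (3.20%) nor the NF-κB letters GGGANTTTCC (0.411%) were found in a receptor window. No 2 of these matches overlapped. The 250 bases before the start are shown for the 5 genes with a match in that stretch, with the matched letters in capitals, because Clec7a and Clec5a had the largest increases with IL-4 of the 9 in WT, Clec4a1 and Clec12a fell, and Clec4e was the receptor whose WT M2 libraries differed most. The windows lie at chr6:129472780-129473029 and chr6:40585806-40586055 and chr6:123289872-123290121 on the minus strand, and at chr6:122921598-122921847 and chr6:129349994-129350243 on the plus strand. A match describes letters in these windows and no binding was measured.
Clec7a: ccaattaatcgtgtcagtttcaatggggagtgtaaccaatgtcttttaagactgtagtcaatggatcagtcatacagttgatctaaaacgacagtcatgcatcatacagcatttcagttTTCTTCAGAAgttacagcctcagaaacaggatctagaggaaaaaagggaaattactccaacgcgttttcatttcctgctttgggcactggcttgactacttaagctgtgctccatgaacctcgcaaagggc
Clec5a: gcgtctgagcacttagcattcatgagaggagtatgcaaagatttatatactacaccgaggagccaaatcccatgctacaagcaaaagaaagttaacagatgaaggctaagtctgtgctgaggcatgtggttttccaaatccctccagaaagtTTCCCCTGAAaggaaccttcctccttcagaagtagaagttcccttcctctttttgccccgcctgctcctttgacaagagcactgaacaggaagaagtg
Clec4a1: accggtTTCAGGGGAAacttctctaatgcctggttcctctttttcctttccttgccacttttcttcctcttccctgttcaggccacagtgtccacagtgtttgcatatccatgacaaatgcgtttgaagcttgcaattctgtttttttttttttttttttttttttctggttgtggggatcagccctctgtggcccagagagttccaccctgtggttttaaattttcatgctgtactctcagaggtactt
Clec12a: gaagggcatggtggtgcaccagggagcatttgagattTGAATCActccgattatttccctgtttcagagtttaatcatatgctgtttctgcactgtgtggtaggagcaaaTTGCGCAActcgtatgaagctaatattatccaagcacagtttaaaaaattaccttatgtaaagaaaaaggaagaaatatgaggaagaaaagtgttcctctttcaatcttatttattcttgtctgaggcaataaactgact
Clec4e: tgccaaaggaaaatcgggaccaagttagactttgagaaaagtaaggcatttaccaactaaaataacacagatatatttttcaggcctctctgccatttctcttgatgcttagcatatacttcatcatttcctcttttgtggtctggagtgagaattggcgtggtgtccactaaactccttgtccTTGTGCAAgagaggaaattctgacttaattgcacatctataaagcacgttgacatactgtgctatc

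Library totals ran from 7930525 to 10167695 counts, and counts were normalized by the TMM method to the mean library size. Mir210, the targeted gene, had 1 to 5 counts in the WT libraries and 0 in each of the 6 KO libraries, where a count of 0 allows up to 3 counts per library and covers counting error only. Each of the 8 macrophage markers was detected in every group, whereas Ly6g of neutrophils and Cd3e, Ncr1 and Nkg7 of lymphoid cells were at 0 in every library. IL-4 raised Arg1, an enzyme of arginine metabolism, by 5.53 on the log2 scale in WT and 4.71 in KO. The increases started from different M0 levels, 371 ± 77.0 (SD) normalized counts in WT and 666 ± 101 in KO. That M0 difference was 0.85 on the log2 scale (edgeR's quasi-likelihood test, adjusted p = 0.0342). In M2, Arg1 had 17078 ± 720 normalized counts in WT and 17529 ± 698 in KO. In these bulk samples fewer cells that carry a receptor and less RNA per cell cannot be told apart.

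Which receptors did the resting macrophage express, and did IL-4 change their order? Levels between genes are compared here as read counts scaled to library size and to each kilobase of merged exons. In WT M0, Clec4n led with 366 ± 32.0 (SD, n = 3 here and below), followed by Clec4d with 303 ± 26.2 and Clec4a1 with 184 ± 9.10, each above the next in all libraries. Clec4a2 with 45.2 ± 2.61 and Clec12a with 41.9 ± 4.30 overlapped, as did Clec4a3 with 24.7 ± 4.96 and Clec7a with 19.5 ± 2.34. Clec4e and Clec5a were lowest, at 4.90 ± 0.38 and 4.72 ± 0.60, and also overlapped. In miR-210 KO M0 the same 3 genes led, with Clec4n at 489 ± 39.3 and Clec4d at 371 ± 40.6.

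After IL-4, Clec7a moved from the seventh place in WT to the first, with a level per kilobase of 427 ± 4.69 in WT M2 and 432 ± 22.7 in KO M2. Clec4d came second at 144 ± 6.03 in WT and 151 ± 9.15 in KO. Clec4n was at 79.8 ± 2.59 in WT M2, below Clec4a1, and at 103 ± 7.35 in KO M2, where it overlapped Clec4a1 at 101 ± 13.7. Clec4e was the lowest of the 9 in both M2 groups. The sum of the 9 levels changed less than their order, from 994 ± 31.3 in WT M0 to 895 ± 12.5 in WT M2 and from 1147 ± 104 in KO M0 to 920 ± 57.5 in KO M2. Clec7a made up 1.96% ± 0.19 of that sum in WT M0 and 47.7% ± 0.90 in WT M2, and 1.97% ± 0.22 and 47.0% ± 1.75 in KO. The ratio of Clec7a to Clec4n per kilobase went from 0.0537 ± 0.0092 to 5.36 ± 0.22 in WT and from 0.0463 ± 0.0060 to 4.21 ± 0.33 in KO. Levels per length depend on the annotated length. For Clec7a the merged exons sum to 2638 bases and the alternative below to 2272, but its longest transcript annotated as coding has 707. A shorter length would raise its level per kilobase in every group, so its place in WT M0 and its shares depend on the length taken. Its level at 707 bases was not computed. With the longest transcript that is not a retained intron, chosen after seeing the data, Clec12a moved ahead of Clec4a2 in both M0 groups and of Clec4a3 in both M2 groups and Clec4n moved behind Clec4a1 in KO M2, while Clec4n in M0 and Clec7a in M2 still led. Clec4n and Clec4d then overlapped in WT M0, at 370 ± 32.3 and 366 ± 31.6, and in KO M0, where Clec4n ranged from 452 to 531 and Clec4d from 392 to 477. In KO M2 Clec12a, at 46.0 to 50.1, lay within the range of Clec4a3, 35.9 to 53.5. Clec4e and Clec5a no longer overlapped in WT M0, at 9.03 to 10.5 and 4.03 to 5.18.

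**Figure D1:**
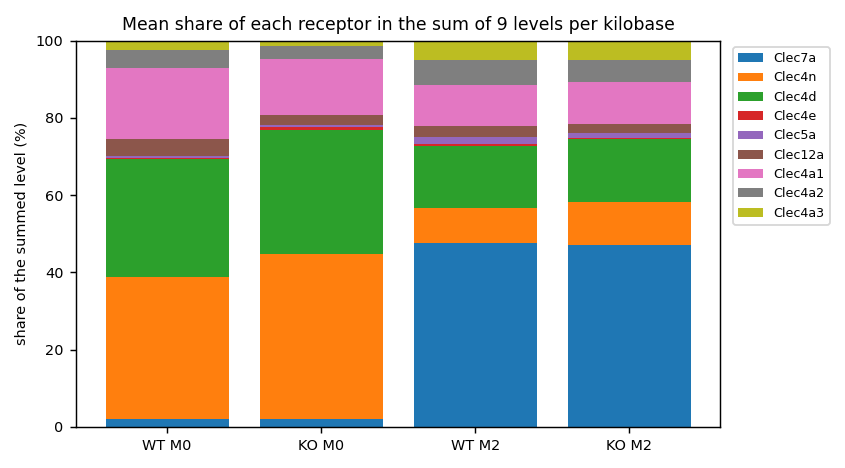
Stacked bars give the mean share in percent (n = 3 libraries) of each of the 9 receptors in the sum of their levels per kilobase of merged exons, for WT M0, KO M0, WT M2 and KO M2. The shares depend on the length taken for each gene. Clec7a takes 1.96% and 1.97% in the M0 groups and 47.7% and 47.0% in the M2 groups, where Clec4n and Clec4d take smaller shares than in M0.

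IL-4 polarization moved the 9 receptors in both directions. In WT, 4 receptors rose and 4 fell, beside 23.6% of the 11135 genes called higher and 21.8% called lower (45.4% called in all). In miR-210 KO cells 4 rose and 5 fell, beside 18.5% of 11117 genes called higher and 18.1% called lower (36.6% in all). Called means an adjusted p under 0.05 in edgeR's quasi-likelihood test, with Benjamini-Hochberg adjustment over all genes tested, and a change of over 1.2-fold in a protein-coding gene with an average normalized count over 10. The median log2 fold change of the 9 was -0.29 in WT and -0.66 in KO, against -0.0012 and -0.0078 over all genes tested. Each median of the 9 is the value of a single gene, Clec4e in WT, which was not called, and Clec12a in KO. It is therefore not read as a shift of the receptors as a group.

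Among the activating receptors, Clec7a (Dectin-1, the receptor of fungal β-glucan) had 408, 472 and 519 normalized counts in the WT M0 libraries, against 10116, 10202 and 10338 in WT M2. In KO it had 428, 589 and 614 in M0 and 9977, 10061 and 10957 in M2. No M0 library came near an M2 library, and the 3 WT M2 libraries lay within a narrow range. The increase was 21.96-fold in WT (log2 fold change 4.46 ± 0.09, SE here and below, adjusted p = 4.57e-13) and 18.9-fold in KO (4.24 ± 0.13, adjusted p = 1.12e-10).

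Clec4n (Dectin-2, which binds fungal mannans) went the other way. Its WT libraries had normalized counts of 4275, 4763 and 5094 before IL-4 and of 992, 1032 and 1058 after it, and its KO libraries 5757, 6378 and 6760 before and 1218, 1357 and 1398 after. Every M2 library was below every M0 library, and Clec4n was 4.59-fold lower in M2 in WT (-2.20 ± 0.08, adjusted p = 8.34e-11) and 4.77-fold lower in KO (-2.26 ± 0.09, adjusted p = 1.21e-09).

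Clec4d (MCL, a partner of Mincle and Dectin-2) had 4009, 4448 and 4768 normalized counts in WT M0, against 1993, 2113 and 2164 in WT M2. In KO M0 it had 4718, 5733 and 5749, and in KO M2 2106, 2126 and 2346. It fell 2.11-fold in WT (-1.08 ± 0.07, adjusted p = 5.41e-08) and 2.47-fold in KO (-1.31 ± 0.09, adjusted p = 1.72e-07), less than Clec4n in both genotypes. The ratio of Clec4d to Clec4n per kilobase accordingly went from 0.834 ± 0.121 to 1.80 ± 0.05 in WT and from 0.758 ± 0.035 to 1.47 ± 0.12 in KO.

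Clec4e (Mincle, which binds mycobacterial glycolipid) had 206, 217 and 239 normalized counts in WT M0, and 267, 304 and 337 in KO M0. In KO M2 it had 85.5, 105 and 106, all far below KO M0, a fall of 3.06-fold (-1.61 ± 0.13, adjusted p = 6.34e-07). The WT M2 libraries did not agree: 2 had 125 and 139 and the third, library 3, had 284, above every WT M0 library. WT M2 and WT M0 therefore overlapped, with -0.29 ± 0.23 (adjusted p = 0.326), and without WT M2 library 3 the difference was -0.74 (adjusted p = 0.00042).

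WT M2 library 3 also held the highest value of its group for 10 of the 12 tested response genes of the CLR pathway, cytokines and early genes that Syk and NF-κB signalling are known to induce. Tnf had 845 normalized counts there and 445 and 483 in the other 2 libraries. Cxcl1, a neutrophil-attracting chemokine, had 92.9 against 54.3 and 62.1, and Ptgs2, the inducible cyclooxygenase, 97.4 against 43.9 and 59.1. For Egr2 and Nlrp3, also among the 10, library 3 was only 1.10 and 1.07 times the mean of the other 2. Of the receptors themselves, library 3 was highest for 4 of 9. The share of all genes for which library 3 was highest was not computed, so neither count is read as a result about these lists. The part of this library's state in the Clec4e result was not tested.

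**Figure D2:**
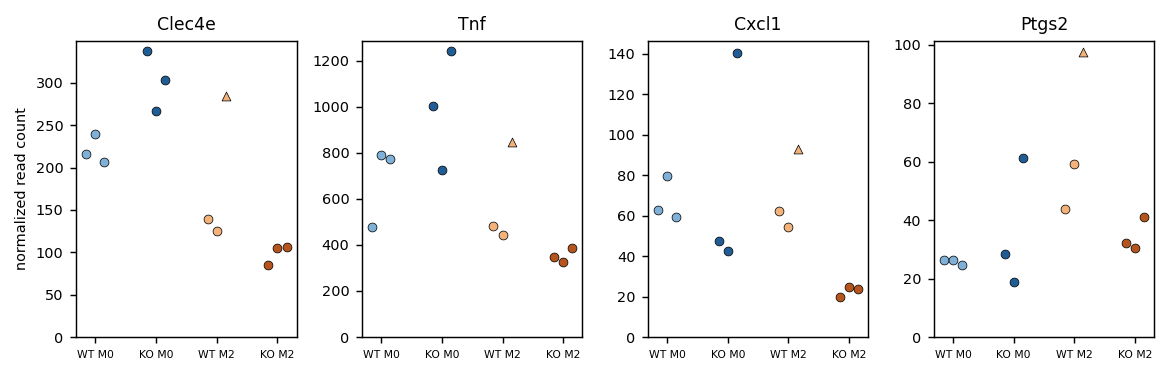
Points are normalized read counts of Clec4e, Tnf, Cxcl1 and Ptgs2 in the 3 libraries of each group, on linear axes from 0. The triangle is WT M2 library 3, which had 284, 845, 92.9 and 97.4 normalized counts and was the highest WT M2 library for each of the 4 genes.

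Clec5a (MDL-1, the DAP12-coupled receptor) rose together with Clec7a, from a low level. It had 163, 199 and 209 normalized counts in WT M0, against 603, 615 and 762 in WT M2, and 204, 204 and 261 in KO M0 and 519, 522 and 574 in KO M2. The groups were apart in both genotypes, with a 3.44-fold increase in WT (1.78 ± 0.11, adjusted p = 2.56e-08) and 2.41-fold in KO (1.27 ± 0.11, adjusted p = 1.28e-06).

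The inhibitory receptors moved in opposite directions. Clec12a (MICL, which binds uric acid crystals) fell from 1990, 2282 and 2443 normalized counts in WT M0 to 1397, 1402 and 1551 in WT M2, and from 1501, 1775 and 1920 in KO M0 to 1043, 1127 and 1136 in KO M2. The fall was 1.54-fold in WT (-0.63 ± 0.08, adjusted p = 2.37e-05) and 1.58-fold in KO (-0.66 ± 0.09, adjusted p = 0.000113). Clec4a2 (DCIR1) rose from 1122, 1223 and 1255 in WT M0 to 1505, 1539 and 1616 in WT M2, and from 903, 1007 and 1078 in KO M0 to 1240, 1434 and 1483 in KO M2. These were the smallest increases of the 9, 1.29-fold in WT (0.37 ± 0.07, adjusted p = 0.000408) and 1.39-fold in KO (0.47 ± 0.09, adjusted p = 0.00146).

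The other DCIR relatives, neighbours in the genome, parted as well. Clec4a3 (DCIR3) rose from 589, 811 and 883 normalized counts in WT M0 to 1304, 1318 and 1486 in WT M2 (1.80-fold, 0.85 ± 0.12, adjusted p = 4.48e-05). In KO it rose from 442, 558 and 589 to 1068, 1574 and 1594 (2.66-fold, 1.41 ± 0.15, adjusted p = 8.71e-06). Clec4a1 (DCIR4) fell from 4193, 4543 and 4598 to 2144, 2214 and 2478 in WT (1.95-fold, -0.96 ± 0.07, adjusted p = 1.23e-07), and from 3692, 4037 and 4188 to 2054, 2598 and 2652 in KO (1.64-fold, -0.71 ± 0.10, adjusted p = 0.000104). Within the 371 kb cluster, Clec4a3 and Clec4a2 thus rose while Clec4a1, Clec4n and Clec4d fell in both genotypes, and in the 130 kb cluster Clec12a fell and Clec7a rose.

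**Figure D3:**
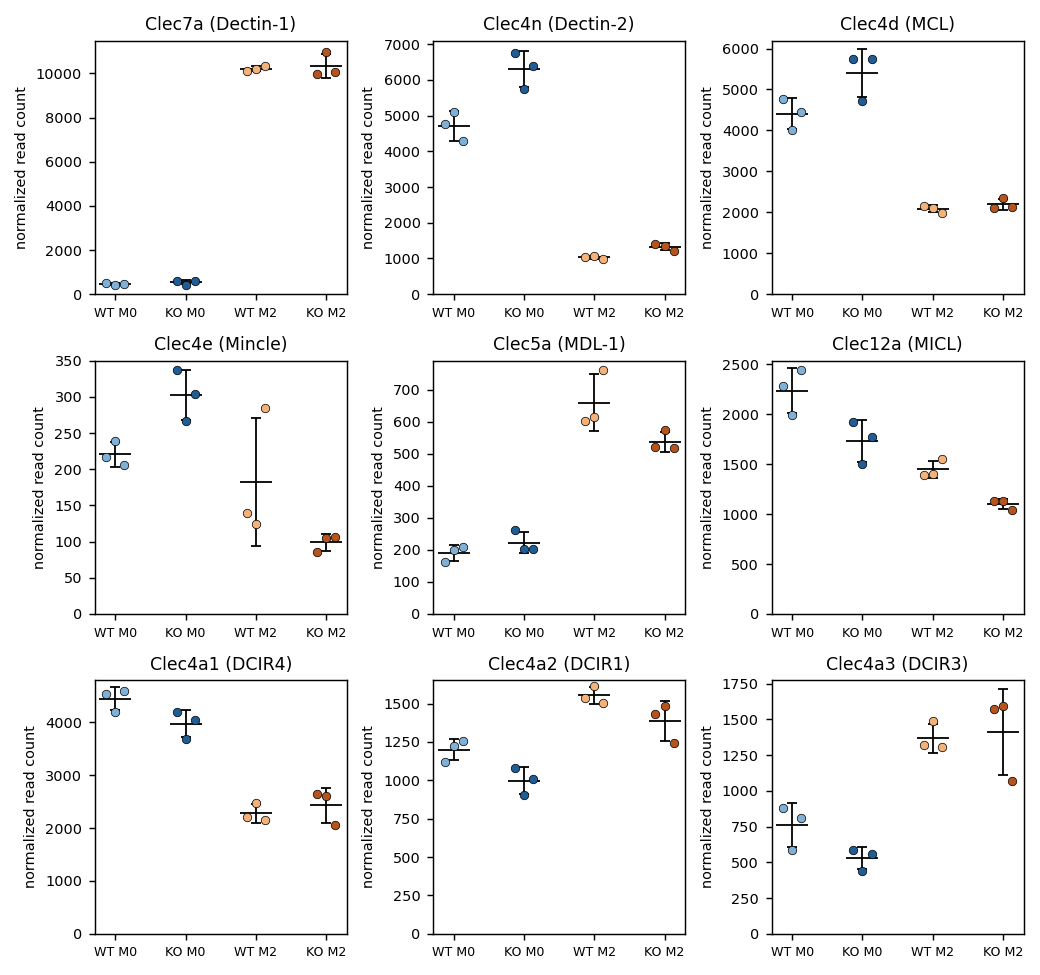
Each panel plots the normalized read count of a receptor in the 3 libraries of WT M0, KO M0, WT M2 and KO M2, with the mean as a bar and the SD as whiskers, on a linear axis from 0. Clec7a, Clec5a, Clec4a2 and Clec4a3 are higher in M2 in both genotypes, and WT M2 and WT M0 overlap for Clec4e alone among the 9.

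Did the loss of miR-210 change the receptors in resting cells? In M0, 0 of the 9 were called by edgeR, beside 0.461% of the 14089 genes tested, while 6 of the 9 had an unadjusted p under 0.05, beside 10.0% of all genes. DESeq2, run as an alternative, called 2 of them, Clec4n (adjusted p = 0.00357) and Clec4a3 (adjusted p = 0.0392). In all it called 209 genes, where edgeR called 65. The libraries of both genotypes did not overlap for 5 of the 9, beside 14.3% of all genes. The values ran in both directions: 0.42 ± 0.09 for Clec4n (adjusted p = 0.0936), 0.45 ± 0.11 for Clec4e (adjusted p = 0.122) and 0.29 ± 0.10 for Clec4d (adjusted p = 0.318) on the log2 scale, higher in KO, and -0.53 ± 0.15 for Clec4a3 (adjusted p = 0.194) and -0.37 ± 0.11 for Clec12a (adjusted p = 0.208), lower in KO. Clec4n, Clec4e, Clec12a, Clec4a1 and Clec4a2 were the 5 with no overlap. Without WT M0 library 2, edgeR called Clec4n (0.48, adjusted p = 0.0241), Clec4e (0.52, adjusted p = 0.0483) and Clec4a3 (-0.67, adjusted p = 0.011), and without KO M0 library 2 it called Clec4n (0.48, adjusted p = 0.0473), so each of these 2 libraries decided a call. Markers of neutrophils summed to between 558 and 781 normalized counts in WT M0 and between 1012 and 1259 in KO M0. Nearly all of this was the collagenase Mmp8, with 693 ± 123 in WT M0 and 1079 ± 140 in KO M0, while the defining marker Ly6g was at 0 in both, and the part of this list in the M0 differences was not tested. Markers of monocytes, from which the macrophages were grown, summed to between 44.0 and 96.3 normalized counts in WT M0 and between 23.1 and 34.2 in KO M0, and to between 80.0 and 126 in the M2 libraries. Most of this was Ccr2, with 50.1 ± 21.3 in WT M0 and 19.4 ± 4.31 in KO M0, while Ly6c2 and Plac8 had at most 3 counts in every library, and the 2 of the 4 markers tested rose with IL-4 in both genotypes. The part of the monocyte list in the results was not tested.

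In M2, 2 of the 9 were called between the genotypes, beside 0.98% of the 13980 genes tested, 1 of them higher (0.408% of all genes) and 1 lower (0.572%). The higher one was Clec4n, whose difference was known when the genes were chosen, so nothing is read from this count. Clec12a had 1397, 1402 and 1551 normalized counts in WT M2 and 1043, 1127 and 1136 in KO M2. All KO libraries were below all WT libraries, and Clec12a was 1.31-fold lower in KO (-0.39 ± 0.06, adjusted p = 0.00533), a call that was lost in the fit of all 12 libraries (adjusted p = 0.0913). In M0 its difference was similar in size, at -0.37 ± 0.11, and the interaction of genotype and polarization was -0.02 ± 0.13 (adjusted p = 0.977). Clec4n had 992, 1032 and 1058 in WT M2 and 1218, 1357 and 1398 in KO M2, without overlap, a log2 fold change of 0.37 ± 0.07 beside 0.42 ± 0.09 in M0. Without WT M2 library 3, KO M2 library 1 or KO M2 library 2, that value was 0.35, 0.33 and 0.35.

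Groups did not overlap in M2 for 5 of the 9, beside 16.2% of all genes: Clec4n, higher in KO, and Clec12a, Clec4a2, Clec5a and Clec4e, lower in KO. Since this count includes Clec4n, nothing is read from it. Clec5a was at -0.29 ± 0.09 (adjusted p = 0.181) and Clec4a2 at -0.16 ± 0.07 (adjusted p = 0.39), neither called. Clec7a, the most abundant of the 9 in M2 cells, was at 0.02 ± 0.05 (adjusted p = 0.949), with KO libraries at 9977 to 10957 on either side of the WT libraries at 10116 to 10338. Clec4e was at -0.86 ± 0.25 (adjusted p = 0.132). Without WT M2 library 3 that value was -0.41 (adjusted p = 0.438), and without WT M2 library 2, one of the lower libraries, it was -1.09 (adjusted p = 0.0227) and called.

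**Figure D4:**
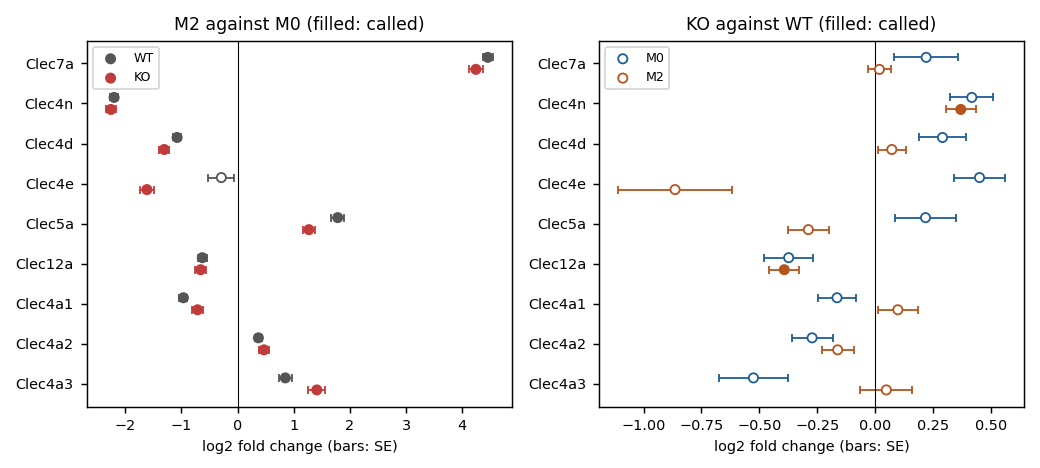
Points are log2 fold changes with their SE for the 9 receptors, M2 against M0 in WT and KO on the left and KO against WT in M0 and M2 on the right; filled points were called and open points were not, and Clec4n in M2 is shown as a description. Clec7a stands at 4.46 and 4.24 on the left, and Clec4e is the receptor whose KO against WT values lie farthest apart, at 0.45 in M0 and -0.86 in M2.

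Whether IL-4 acted differently in the genotypes was tested as the interaction over all 12 libraries. edgeR called 0 of the 9, beside 0.0% of the 14825 genes tested, with an unadjusted p under 0.05 for 3 of the 9 and for 1327 genes (8.95%) in all. DESeq2 called 1 of the 9, Clec4e (adjusted p = 0.0136), among 74 genes. The 3 were Clec4e at -1.32 ± 0.31 (adjusted p = 0.137), Clec5a at -0.51 ± 0.17 (adjusted p = 0.321), and Clec4a3 at 0.57 ± 0.22 (adjusted p = 0.418). For Clec4e the KO libraries lay above all WT libraries in M0 and below all WT libraries in M2. Clec4n had an interaction of -0.05 ± 0.11 and Clec7a of -0.21 ± 0.15 (adjusted p = 0.729).

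The adaptors and kinases behind these receptors were described with a list of 34 genes, all tested. Between the genotypes 0 of the 34 were called in M0 and 1 in M2, Src, a kinase that phosphorylates tyrosine motifs, with 504 ± 28.5 normalized counts in WT M2 and 379 ± 47.8 in KO M2 (-0.41 ± 0.09, adjusted p = 0.0368). That call was kept in 1 of the 6 fits that left out a library, the fit without KO M2 library 1. It was also lost in the fit of all 12 libraries (adjusted p = 0.143). With IL-4, 8 rose and 13 fell in WT and 9 rose and 12 fell in KO, with a median of -0.04 and -0.05. Over all genes 23.6% were called higher and 21.8% lower with IL-4 in WT, and 18.5% and 18.1% in KO. Between the genotypes 0.461% of all genes were called in M0 and 0.98% in M2. Fcer1g, the adaptor of Dectin-2, MCL and Mincle, fell 1.46-fold in both genotypes (-0.54 ± 0.07, adjusted p = 3.93e-05 in WT and -0.55 ± 0.08, adjusted p = 0.000173 in KO). Tyrobp, the adaptor of MDL-1, was at 0.26 ± 0.07 and 0.14 ± 0.10, Syk at 0.20 ± 0.06 and 0.09 ± 0.07, and Card9 at -0.16 ± 0.07 and -0.10 ± 0.10, none of them called, although Tyrobp and Syk in WT had an adjusted p of 0.00761 and 0.0137 and missed only the fold limit. The largest changes shared by the genotypes were those of Src (19.8-fold higher in WT and 21.5-fold in KO), of the protease Malt1 (9.50-fold and 6.94-fold) and of the ubiquitin ligase Cblb, which restrains Syk signalling (4.74-fold and 5.12-fold).

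Of 18 response genes of the pathway, 12 were tested in polarization, of which 2 rose and 5 fell in WT and 1 rose and 8 fell in KO, with a median log2 fold change of -0.32 and -1.62. Beside them, 23.6% of all genes were called higher and 21.8% lower in WT, and 18.5% and 18.1% in KO. The largest shared changes were in Egr2, an early transcription factor (17.3-fold higher in WT and 10.9-fold in KO), the cytokine gene Il10 (10.3-fold and 9.36-fold lower) and the chemokine gene Ccl3 (7.21-fold and 10.5-fold lower). KO M0 library 3 stood apart from the other 2 libraries of its group for several of these genes, with 2403 normalized counts of Egr1 against 29.4 and 26.5, 1565 of Cxcl2 against 354 and 248, and 141 of Cxcl1 against 47.6 and 42.7. The KO median of -1.62 includes this library. Without it only Il10, Ccl3 and Ccl4 were below -1.62 with IL-4 in KO, and Tnf was at -1.31, Cxcl1 at -0.99 and Ccl2 at -0.97. Egr1 was then called higher with IL-4 in KO (1.89, edgeR adjusted p = 2.85e-05). The Clec4e value of KO M0 library 3, 304, was the middle one of its group, and without this library the difference of Clec4e in M0 was 0.44 in place of 0.45. Between the genotypes none of the 12 was called in M0 (without KO M0 library 3, 1 was, Egr1, at -2.64 with an adjusted p of 0.00102 in place of 2.24, named after its values were seen) and 1 of 11 in M2, Cxcl1, with 69.8 ± 20.4 normalized counts in WT M2 and 22.9 ± 2.52 in KO M2 (-1.59 ± 0.24, adjusted p = 0.00261), a call kept when any of the 6 libraries was left out and lost in the fit of all 12 libraries (adjusted p = 0.163). Beside these counts, 0.461% of all genes tested were called between the genotypes in M0 and 0.98% in M2.

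The remaining genes with a Clec symbol and the other lectin receptors gave a mixed picture as well. The Clec genes were listed by symbol alone, so that Clec16a is among them without a check for a lectin domain. Of 25 other Clec genes, 7 were tested in polarization, and the same 3 rose and 1 fell in both genotypes. Beside this count and that of the lectin receptors below, 23.6% of all genes were called higher and 21.8% lower in WT, and 18.5% and 18.1% in KO. Clec4b1, a neighbour of Clec4a3, rose from at most 4 counts per library in M0 to between 15 and 35 in M2 (3.03 ± 0.39 in WT and 3.39 ± 0.45 in KO). Clec10a, the galactose-binding lectin MGL1, rose 3.10-fold in WT and 2.84-fold in KO, Clec16a by 0.54 and 0.71 on the log2 scale, and Clec2i fell 2.29-fold and 2.34-fold. The neighbours Clec12b, Clec1a, Clec1b, Clec9a and Clec4b2 had at most 10 counts in any library and Clec4a4 at most 18. Of 23 other lectin receptors, 12 were tested, of which 6 rose and 4 fell in WT and 5 rose and 4 fell in KO. Mgl2, the close relative of Clec10a, rose from 12.6 ± 7.7 to 5725 ± 285 normalized counts in WT and from 19.1 ± 3.9 to 6696 ± 208 in KO. The Ly49 receptor gene Klra2 fell 25.4-fold and 28.2-fold. Olr1, an oxidized LDL receptor, had 0 counts in each WT M0 library, at most 1 in KO M0 and 22 to 53 in the M2 libraries, so no fold is given. Mrc1, the mannose receptor, rose by 0.62 ± 0.10 in WT and 0.89 ± 0.09 in KO. Between the genotypes, 10 of the 23 lectin receptors were tested in M0 and 11 in M2. Over all genes 0.461% were called between the genotypes in M0 and 0.98% in M2. Cd93 alone was called between the genotypes, in M2, with 8646 ± 749 normalized counts in WT and 10681 ± 455 in KO (0.31 ± 0.06, adjusted p = 0.023). That call was kept in 2 of the 6 fits that left out a library and lost in the fit of all 12 libraries (adjusted p = 0.144).

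Genes with the most similar pattern were found by Pearson's r of log2 normalized counts over the 12 libraries among 14087 genes with an average normalized count over 10, as a description, since the libraries share 2 states that set most of the variation. Clec7a was most like Bhlhe40, Colgalt1 and Prkcd, with r of 0.999. For Clec4n these were Hpse, Ptbp3 and Tk2 (0.994 to 0.997), and for Clec4d Smox, Trem4 and Sephs2 (0.993 to 0.995). Clec5a was followed by Kcnn4, Psat1 and Slc66a2 (0.991 to 0.993), Clec12a by Slamf9, Sirpb1a and Ifi214 (0.961 to 0.963), and Clec4a1 by Ly86, P2ry12 and Rassf5 (0.991 to 0.992). Clec4a2 was closest to Nxf1, H3c15 and 8030453O22Rik (0.955 to 0.967) and Clec4a3 to Gng11, Lpxn and Gadd45b (0.979 to 0.988). Clec4e had the lowest values of the 9, with Cyb5r1 (0.937), Tnf (0.927) and Zfp763 (0.923).

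After the M0 and M2 means were subtracted, which leaves the variation within each state, the closest genes were others in nearly all cases. Among them were Cd53 and Peds1 for Clec7a (0.962 and 0.961), Strap, Efhd2 and Adss2 for Clec4n (0.932 to 0.938), and Tomm20, Tollip and Nhlrc3 for Clec4d (0.938 to 0.966). Clec4e was then closest to Alas1, Calcrl and Zranb3 (0.922 to 0.941), and Clec5a to Nfkbia, the inhibitor of NF-κB, Slc31a2 and Cxcl14 (0.902 to 0.966). Clec12a was closest to Tcirg1, Slc25a47 and Src (0.940 to 0.944), Clec4a1 to Cnp, Ly86 and Rassf5 (0.940 to 0.959), Clec4a2 to Nxf1, Ap1g2 and Fes (0.899 to 0.946), and Clec4a3 to Slfn8, Ifi204 and Cd5l (0.964 to 0.968). Among the receptors themselves, Clec4e and Clec5a had an r of 0.81 on this scale and -0.60 over the 12 libraries as they were. This scale keeps the difference between the genotypes, and both genes were lower in KO M2 than in WT M2 without overlap. Both also had their highest M2 value in WT M2 library 3, with 284 and 762 normalized counts. The part of these differences in the r of 0.81 was not tested.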

How the data were processed

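RNA-seq libraries of bone marrow-derived macrophages, 3 for M0 and 3 for M2 in each genotype, were grouped by the group names of the columns, whose numbers 1 to 3 are not tied to samples. The deposited counts are raw counts per gene that the authors made by trimming (Trimmomatic), duplicate removal (Picard), alignment to GRCm39 (STAR) and strand-specific counting (featureCounts). The authors also deposited a signal, in which counts are scaled with DESeq2 size factors set separately for each pair of groups, and it was used only as an alternative for levels. Removing duplicates caps the highest counts, most of all in short genes.

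Counts were tested across all genes in R 4.3.3 with edgeR 4.0.16 (TMM, filterByExpr by group, glmQLFit and glmQLFTest), with 6 libraries per pairwise fit and 12 for the interaction, with Benjamini-Hochberg adjustment over all genes tested. The scripts were tested on simulated data. Calls between genotypes required a change above 0.263 on the log2 scale beside an adjusted p under 0.05, and no fold limit applied to the interaction. Symbols and exons came from GENCODE (GRCm39), which matched 56323 identifiers. The 9 genes and the gene lists were chosen with earlier results of these data known. Named from each list were the genes called between genotypes and the 3 largest changes that polarization shared. Alternatives were DESeq2 1.42.0, other normalizations and filters, other fold limits, all 12 libraries, the column number as a block, and each library left out. Protein sequences were not analysed here. One of the genes most similar to Clec7a and one lymphoid marker are not reported here.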

Additional observations from a re-analysis of the deposited data

Results flagged for a closer look

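Clec4e gave the sole flag among the 9 receptors, because its KO libraries were all above the WT libraries in M0 and all below them in M2. The interaction of genotype and polarization was -1.32 ± 0.31 on the log2 scale (edgeR, adjusted p = 0.137), so the difference did not pass the threshold over all genes. DESeq2 gave -1.34 with an adjusted p of 0.0136. Over the fits that left out a library the value ran from -1.55 to -0.87, with edgeR's adjusted p between 0.0614 and 0.334, and the value nearest to 0 came without WT M2 library 3. With groups of 3 libraries, these fits cannot settle whether a single library was an outlier.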

How the results depend on the processing

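Of the 9 receptors, the number called in M0 between the genotypes was 0 and became 2 with DESeq2, 5 with no filter on low counts, 2 in the fit of all 12 libraries and 4 with the replicate block by column number. In M2 it was 2, Clec4n included, and became 4 with no filter, 3 with the block (Clec4e, at -0.82 with an adjusted p of 0.00487, was added), 0 in the fit of all 12 libraries and 0 at a 2-fold limit. The interaction calls were 0 and became 1 with DESeq2 and 3 with no filter, and the 8 polarization calls in WT became 4 at a 2-fold limit. Over all genes DESeq2 called 209 in M0, 130 in M2 and 74 in the interaction, where edgeR called 65, 137 and 0. For the other settings no share over all genes is given, so their counts are not read as a result about the receptors. Over the fits that left out a library, the calls ran from 0 to 3 in M0, with the 3 without WT M0 library 2, and from 1 to 3 in M2, with 1 without WT M2 library 3, KO M2 library 1 or KO M2 library 2 and 3 without WT M2 library 2. The cause of these changes was not tested. Signs turned only in fits that left out a library, for values that were never called: Clec4a3 in M2 ran from -0.05 to 0.21 (-0.0354 and -0.0517 without KO M2 libraries 1 and 2), Clec7a in M2 from -0.0282 (without KO M2 library 2) to 0.0417, and the interaction from -0.12 to 0.05 for Clec12a and from -0.12 to 0.01 for Clec4n. In Clec12a that interaction was 0.0442, 0.0192, 0.0495 and 0.00936 without WT M0 library 2, WT M2 library 3, KO M0 library 1 and KO M2 library 3, and in Clec4n 0.00927 and 0.000278 without WT M0 library 3 and KO M2 library 3. Libraries with the same column number did not deviate together in every pair (r from -0.28 to 0.34 over 14087 genes), so the numbers were not taken to pair the libraries.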

Other observations

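Markers of dendritic cells summed to between 9.17 and 15.2 normalized counts in the M0 libraries and to between 101 and 176 in the M2 libraries. Nearly all of the M2 sum was Zbtb46, with 135 ± 29.9 in WT M2 and 100.0 ± 13.5 in KO M2, while Flt3, Clec9a, Siglech and Cd209a stayed at 3 counts or fewer in every library. The part of this in the receptor levels was not tested. Chil3, a marker of IL-4 stimulated macrophages, had at most 3 counts in any M0 library and 15753 ± 524 normalized counts in WT M2 and 13298 ± 37.2 in KO M2 (log2 fold change between the genotypes -0.24 ± 0.05).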
